A study of Mus musculus with 70 samples.

Results

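The genes described here are 34 genes of glycolysis and of the transcriptional response to low oxygen, chosen by name, as a list of symbols of these pathways drawn up with earlier results of these data known, from 55487 lines that carry a gene name in each count table. They comprise 2 transporters of glucose and lactate (Slc2a1 and Slc16a3), 10 genes of upper glycolysis (Hk1, Hk2, Gpi1, Pfkl, Pfkp, Pfkfb3, Pfkfb4, Aldoa, Aldoc and Tpi1), 8 genes of lower glycolysis and pyruvate use (Gapdh, Pgk1, Pgam1, Eno1, Eno2, Pkm, Ldha and Pdk1), 11 genes of the hypoxia response (Bnip3, Bnip3l, Vegfa, Adm, Car9, Ndrg1, Ddit4, Ankrd37, P4ha1, P4ha2 and Higd1a), and 3 genes of the oxygen sensor itself (Hif1a, Egln1 and Egln3). The samples came from C57BL/6 mice of both sexes, 6 to 8 weeks old, that carried a subcutaneous B16F10 melanoma on each flank, B16F10 being a pigmented mouse melanoma cell line of the same strain. On day 10 after inoculation, 1 flank tumor received either a sham procedure (control) or partial histotripsy, a focused ultrasound treatment that breaks tissue mechanically by cavitation. Tumors were taken 3 or 7 days after the procedure and dissociated, and CD45+ cells (leukocytes) and CD45- cells (all other cells) were separated by flow sorting. "Histotripsy-treated" tumors were the ablated ones and "histotripsy-abscopal" tumors were the untreated ones on the opposite flank of histotripsy-treated mice.

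The 70 libraries fell into 12 groups. On day 3 the CD45- fraction had 4 control, 7 histotripsy-treated and 7 histotripsy-abscopal libraries, and the CD45+ fraction had 4, 6 and 7. On day 7 the CD45- fraction had 11, 3 and 4, and the CD45+ fraction had 10, 3 and 4. Total counts per library ranged from 887798 to 3820705 with a median of 2105674. The model rests on 1 cell line, the labels do not tie the libraries of a fraction or flank to single mice, and they give no sequencing batch. Replicates are separate samples by their labels, but the labels do not say which came from separate mice. The study's legends for these RNA data give fewer mice per group than some groups have libraries, so libraries may share a mouse, and the p-values below, which measure the spread between these samples, would then be too small.

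Glycolysis splits glucose to pyruvate and yields ATP without oxygen, and lactate dehydrogenase and the lactate exporters keep it running when pyruvate is not oxidized in mitochondria. Cells sense oxygen through prolyl hydroxylases (the Egln enzymes), which mark the HIF alpha subunits for degradation when oxygen is present. When oxygen falls, stabilized HIF binds short hypoxia response elements near its targets, which include most glycolytic enzymes, Slc2a1, Vegfa, Car9, Bnip3 and the Egln genes themselves. Tumor cells often run glycolysis at a high rate also with oxygen, and activated myeloid cells such as neutrophils and inflammatory macrophages depend on it.

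Hypoxia response elements contain the core ACGTG or GCGTG. Of the 34 genes, 32 had a RefSeq promoter window (300 bases, 250 of them before the transcription start, GRCm38.p6), Bnip3l and Ndrg1 having none in the table. At least 1 core on either strand (ACGTG or GCGTG, or the reverse complements CACGT or CACGC, where the palindrome CACGTG holds both a forward and a reverse match) was present for 29 of them (90.6%), and Gpi1, Tpi1 and Eno2 had none. A core was present for 46.7% of all 27025 genes in the table and for 67.2% of the 9419 protein-coding genes with at least 10 counts in 3 or more of the libraries. Per window, 81.4% of the 43 windows of these genes and 43.8% of all 32851 windows held one. These letters are short and common, so a match describes the sequence and not a bound site. The part of the window before the RefSeq transcription start and outside annotated exons is printed below for 4 genes, 5′ to 3′ on the strand of the gene, with each core in capitals. For Slc16a3 it holds 236 bases and ends at position -14 relative to the start. The same stretches of Car9 and of both windows of Vegfa held 0 cores and are not printed. Their full windows held 1 core for Car9, and 0 and 2 for Vegfa. In the GENCODE annotation of GRCm38 the stretch of Egln3 lies upstream of the gene, while those of Slc16a3, P4ha2 and Ldha lie inside it, since longer transcripts start further upstream, and overlap no annotated exon. Slc16a3 was called higher in CD45+ cells of day 3 histotripsy-treated tumors than in those of control and of abscopal tumors, Egln3 than in those of abscopal tumors, P4ha2 is one of the genes nearly restricted to CD45- cells, and Ldha has 5 cores in the printed stretch, the overlapping pairs within 2 CACGTG sites included. The full windows of 300 bases held 2 cores for Slc16a3, 1 for Egln3, 4 for P4ha2 and 7 for Ldha. The printed stretches are chr11:120948817-120949052 (plus strand, Slc16a3), chr12:54203875-54204124 (minus strand, Egln3), chr11:54100674-54100923 (plus strand, P4ha2) and chr7:46845554-46845803 (plus strand, Ldha).
Slc16a3: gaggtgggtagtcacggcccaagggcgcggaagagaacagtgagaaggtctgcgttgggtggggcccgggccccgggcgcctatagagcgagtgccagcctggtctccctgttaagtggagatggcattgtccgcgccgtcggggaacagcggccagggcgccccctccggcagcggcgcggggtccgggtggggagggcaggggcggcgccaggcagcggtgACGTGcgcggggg
Egln3: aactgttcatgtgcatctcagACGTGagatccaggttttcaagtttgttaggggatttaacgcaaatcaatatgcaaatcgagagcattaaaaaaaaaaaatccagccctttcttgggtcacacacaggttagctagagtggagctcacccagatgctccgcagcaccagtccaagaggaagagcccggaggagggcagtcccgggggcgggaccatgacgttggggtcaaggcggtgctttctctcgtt
P4ha2: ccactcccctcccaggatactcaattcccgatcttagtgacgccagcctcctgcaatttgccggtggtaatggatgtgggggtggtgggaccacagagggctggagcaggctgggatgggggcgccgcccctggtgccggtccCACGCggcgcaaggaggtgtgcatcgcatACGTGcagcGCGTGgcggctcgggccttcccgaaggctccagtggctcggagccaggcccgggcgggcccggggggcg
Ldha: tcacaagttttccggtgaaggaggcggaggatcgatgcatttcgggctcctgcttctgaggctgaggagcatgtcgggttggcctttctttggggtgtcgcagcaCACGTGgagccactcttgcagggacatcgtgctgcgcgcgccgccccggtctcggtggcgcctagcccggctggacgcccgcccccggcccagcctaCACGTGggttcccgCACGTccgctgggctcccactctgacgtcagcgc

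Levels are given as CPM (counts scaled to a common library size of 1000000), computed from the deposited 3′ tag counts with 1 TMM scaling (a trimmed-mean correction of library size) over all 70 libraries. Differences are log2 fold changes with their standard error (SE) from edgeR's quasi-likelihood test, fitted to all genes that passed its filter on low counts in each comparison, and a gene is called when its Benjamini-Hochberg adjusted p is under 0.05. In these bulk samples, fewer cells of a type and less RNA per cell cannot be told apart. The sort was checked first. Ptprc, the gene of CD45, lay between 706 and 1320 CPM in the CD45+ libraries and between 0 and 1.37 CPM in the CD45- libraries. The summed level of 8 melanoma markers lay between 22600 and 34900 CPM in the CD45- libraries (median 29800) and between 107 and 2560 CPM in the CD45+ libraries (median 220). Fibroblast markers summed to 15 to 12700 CPM in the CD45- libraries, beside the melanoma markers. One library stood apart, CD45+ day 3 histotripsy-treated replicate 3, with a summed level of 8 neutrophil markers of 40700 CPM against 407 to 9970 CPM in the other CD45+ day 3 libraries. It also had the highest level of its group for 24 of the 34 genes, so the calls and balances among the treatment comparisons that rest on it are also given without it.

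The fractions differed far more than the treatments. With the 34 genes compared between CD45+ and CD45- cells of day 7 control tumors, the best replicated comparison (10 against 11 libraries), 30 of 34 were called, against 80.3% of the 12863 genes tested. Of these, 20 were lower in CD45+ cells (38.6% of all genes were) and 10 were higher (41.7% of all genes were), and the median log2 fold change of the 34 was -0.65 against 0.04 over all genes. On day 3 the count in control tumors was 26 of 34 (6 higher, 20 lower, background 65.2%, 34.5% higher and 30.6% lower), in histotripsy-treated tumors 27 (11 higher, 16 lower, background 76.9%, 39.9% higher and 37% lower) and in histotripsy-abscopal tumors 30 (8 higher, 22 lower, background 75.2%, 39.8% higher and 35.3% lower). On day 7 it was 28 in histotripsy-treated tumors (7 higher, 21 lower, background 65.6%, 34% higher and 31.6% lower) and 28 in histotripsy-abscopal tumors (8 higher, 20 lower, background 69.5%, 35.7% higher and 33.8% lower). In all 6 the share of the 34 genes called was above that of all genes, and more of them were called lower than higher, where all genes divided more evenly. This difference from all genes was not tested. Without the library that stood apart, the count in day 3 histotripsy-treated tumors was 30 (11 higher, 19 lower, background 75.3%). Over the 6 comparisons, which use different libraries, 15 genes were lower in CD45+ cells each time, 5 were higher each time, 14 were called in some with 1 direction, and 0 were called in both directions. In the following description of the fractions, ranges and medians without a named group are over all 36 CD45- and 34 CD45+ libraries. Fold changes and p-values beside them without a named comparison are those of day 7 control tumors, so they are not a test of these medians.

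**Figure D1:**
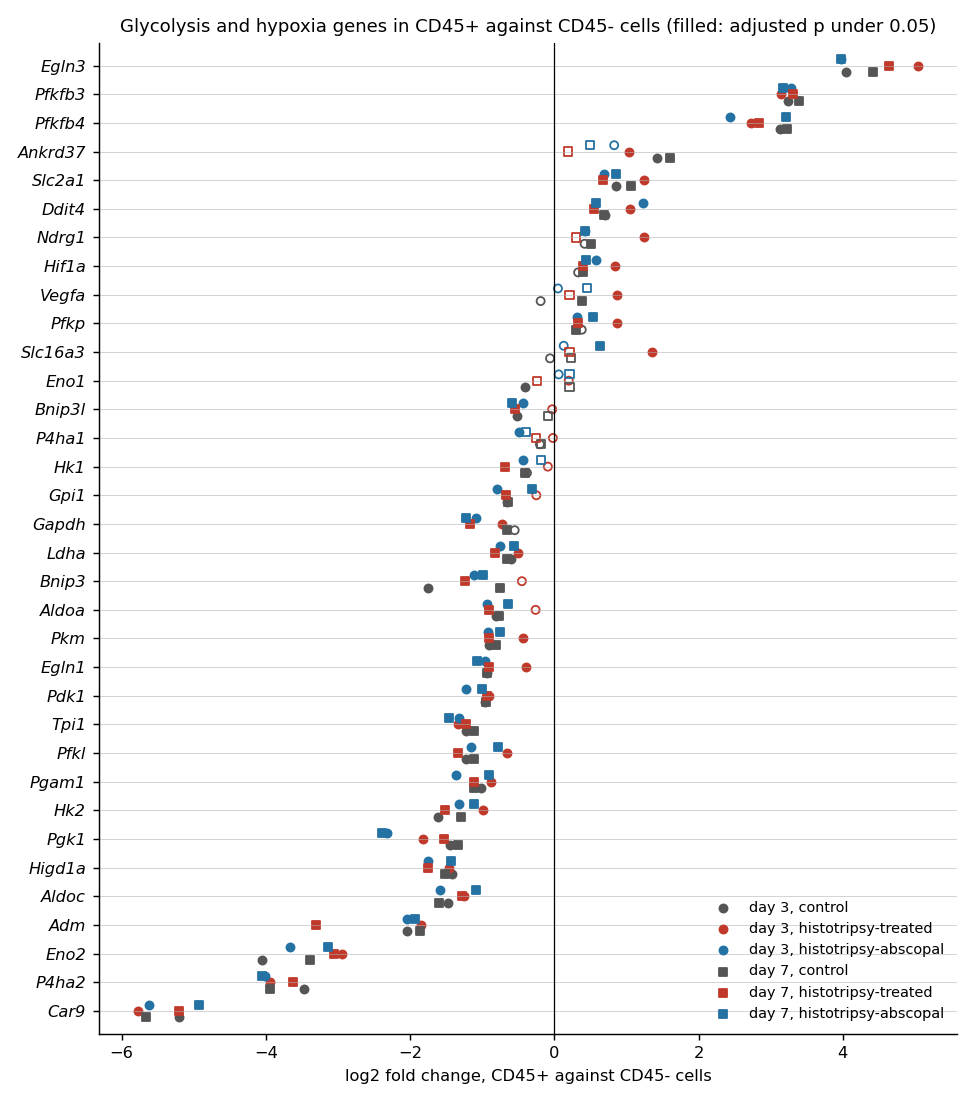
Log2 fold change of the 34 genes between CD45+ and CD45- cells (x axis, values above 0 are higher in CD45+ cells) for each of the 3 treatments on days 3 and 7, with filled symbols for an adjusted p under 0.05. Egln3, Pfkfb3 and Pfkfb4 lie to the right in all 6 comparisons and Car9, P4ha2, Eno2 and Adm to the left, while most glycolytic enzymes lie between 0 and -2.

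Most genes of upper glycolysis were lower in CD45+ cells, with the exceptions of Pfkp and of the regulators Pfkfb3 and Pfkfb4. Hk2, the inducible hexokinase that traps glucose in the cell, lay between 852 and 1940 CPM in the 36 CD45- libraries (median 1250) and between 308 and 769 CPM in the 34 CD45+ libraries (median 499). The ranges did not overlap. In day 7 control tumors the log2 fold change of Hk2 was -1.30 (SE 0.128, edgeR adjusted p = 8.34e-12), and in the other 5 comparisons it lay between -1.61 and -0.99. Triose phosphate isomerase (Tpi1) was likewise lower in every CD45+ library, at 126 to 454 CPM against 471 to 852 CPM. Pfkl, the liver-type subunit of the rate-limiting phosphofructokinase, had medians of 123 CPM in CD45- and 58.3 CPM in CD45+ cells (log2 fold change in day 7 control tumors -1.11, SE 0.104, edgeR adjusted p = 2.16e-12). Its platelet-type counterpart Pfkp went the other way, with medians of 327 and 435 CPM (0.30, SE 0.0747, edgeR adjusted p = 0.000409), and was called in 5 of the 6 comparisons. The aldolases were lower in CD45+ cells. Aldoa had medians of 1260 and 779 CPM (-0.77, SE 0.1) and Aldoc of 142 and 56.3 CPM (-1.60, SE 0.0996). For Hk1, the constitutive hexokinase, the medians were 141 and 112 CPM, and for Gpi1, the isomerase that follows it, 656 and 442 CPM. Both were called lower in CD45+ cells in day 7 control tumors (-0.41 and -0.64).

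The opposite pattern was found for the regulators of this step. Pfkfb3 and Pfkfb4 are the enzymes that make fructose 2,6-bisphosphate, the main activator of phosphofructokinase, and both are HIF targets. Pfkfb3 lay between 80.8 and 206 CPM in CD45+ libraries (median 123) and between 9.07 and 19.5 CPM in CD45- libraries (median 13.5). Pfkfb4 lay between 12.4 and 43.1 CPM and between 1.01 and 6.59 CPM. For both, every CD45+ library was above every CD45- library, although Pfkfb4 rested on as few as 3 counts in CD45- libraries. The log2 fold change was 3.40 for Pfkfb3 (SE 0.132, edgeR adjusted p = 2.64e-24) and 3.23 for Pfkfb4 (SE 0.202, edgeR adjusted p = 1.33e-17) in day 7 control tumors, and it lay between 3.14 and 3.40 and between 2.44 and 3.23 over the 6 comparisons.

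Transport split as well. Slc2a1 encodes GLUT1, the main glucose importer of melanoma and of activated immune cells. Its level was 99.3 to 182 CPM in CD45- libraries and 183 to 571 CPM in CD45+ libraries, so that the highest CD45- and the lowest CD45+ library almost met without overlapping. The log2 fold change of Slc2a1 was 1.06 (SE 0.116, edgeR adjusted p = 1.27e-10) in day 7 control tumors and 0.68 to 1.24 elsewhere. Slc16a3 encodes MCT4, which exports lactate. In control tumors it was at the same order of level in both fractions, with medians of 209 CPM in CD45- and 208 CPM in CD45+ cells on day 3 (log2 fold change -0.06, edgeR adjusted p = 0.832) and of 221 and 259 CPM on day 7 (0.23, SE 0.11, edgeR adjusted p = 0.0545). In day 3 histotripsy-treated tumors it was higher in CD45+ cells, at 171 CPM against 363 CPM by the medians (1.35, edgeR adjusted p = 6.78e-08). That contrast contains the library that stood apart, and without it the log2 fold change was 0.96.

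**Figure D2:**
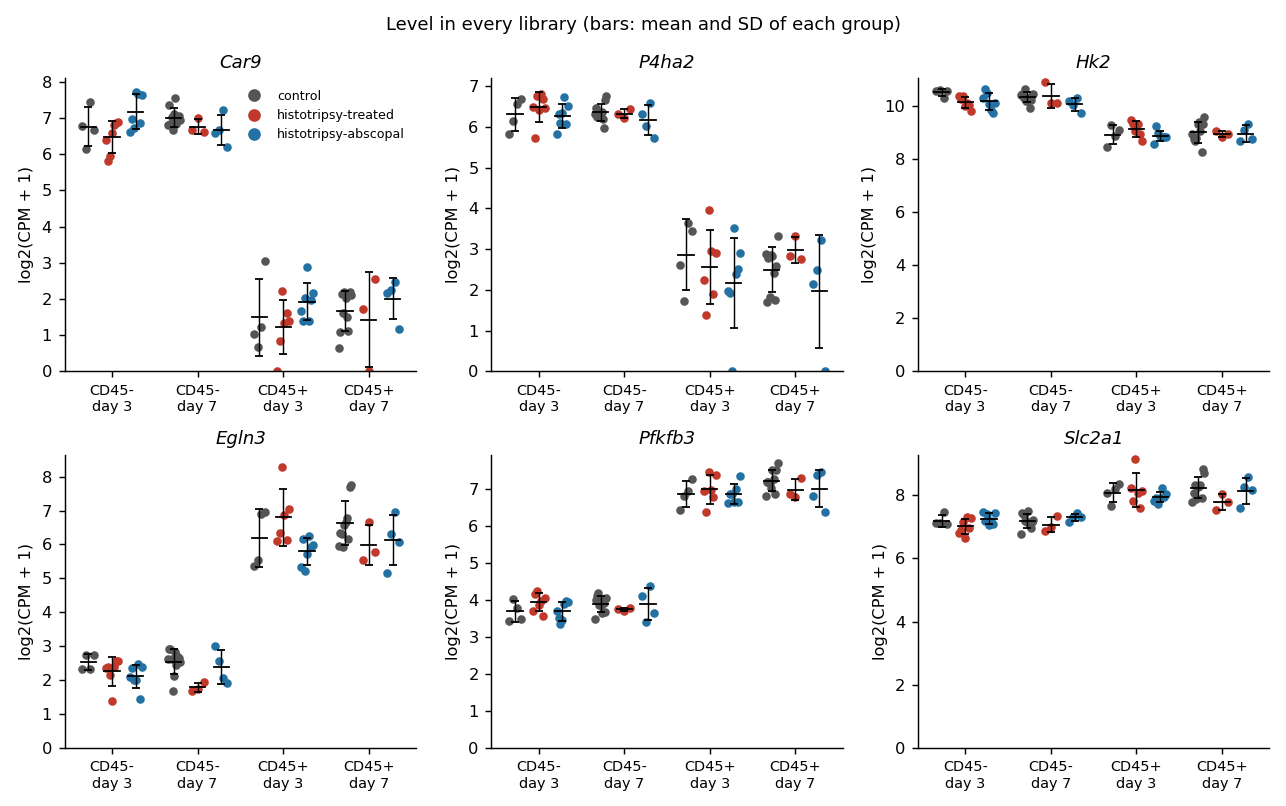
Level of 6 genes in each of the 70 libraries as log2(CPM + 1) (y axis) by fraction and day (x axis), with points coloured by treatment and bars for the mean and SD of each group. Car9, P4ha2 and Hk2 are lower in every CD45+ library than in any CD45- library, and Egln3, Pfkfb3 and Slc2a1 are higher.

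Among the 8 genes of lower glycolysis and pyruvate use, 7 were called in each of the 6 comparisons, each time as lower in CD45+ cells. The gene not called was Gapdh in day 3 control tumors and Eno1 in the other 5. Ldha, which turns pyruvate into lactate, lay at 2230 to 3170 CPM in CD45- and 1180 to 2570 CPM in CD45+ libraries. The ranges overlapped, and the log2 fold change in day 7 control tumors was -0.65 (SE 0.0716, edgeR adjusted p = 1.54e-10). Pkm, the pyruvate kinase, had medians of 906 and 541 CPM (-0.81, SE 0.0889). Pdk1, a kinase that restrains the oxidation of pyruvate in mitochondria, had medians of 116 and 60.6 CPM (-0.95, SE 0.103). Eno2, the neuronal enolase that melanocytic tumors also express, lay between 7.8 and 22.2 CPM in CD45- libraries and between 0 and 3.64 CPM in CD45+ libraries, where no library had more than 5 counts, so its fold is imprecise.

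Some of these lines are uncertain because other genes nearly match the transcript end that 3′ tags come from (at least 97% identity over 100 of the last 300 bases). Gapdh, the glyceraldehyde phosphate dehydrogenase, had medians of 116 and 59.5 CPM, and 45 other genes, 43 of them pseudogenes, match it in this way and held 24.1% of the summed counts. Pgk1, the first ATP-yielding kinase of the pathway, had medians of 25.4 and 6.8 CPM, and Pgam1, the mutase that follows it, of 16.5 and 7.43 CPM, with 0 such genes for either, although 3 and 1 match elsewhere in the transcript. For Eno1, the main enolase, the near-identical gene Eno1b held 81.5% of the counts of both lines together. Eno1 alone differed little between the fractions, at 62.7 CPM in CD45- and 71.2 CPM in CD45+ cells by the medians, and was not called in day 7 control tumors (0.21, SE 0.121, edgeR adjusted p = 0.104). Eno1b had group medians of 329 to 385 CPM in CD45- and 160 to 177 CPM in CD45+ cells, and the sum of both lines 404 to 474 CPM and 216 to 246 CPM. The summed enolase thus followed Ldha and Pkm by these medians. The single line Eno1 was called lower in CD45+ cells only in day 3 control tumors (-0.41, SE 0.169, edgeR adjusted p = 0.0333). Bnip3, described next, had 3 copies that held 9.5% of the counts.

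The hypoxia response genes ranged from a wide gap to hardly any. Car9, a carbonic anhydrase on the cell surface that is widely used as a marker of tumor hypoxia, lay between 55.0 and 208 CPM in CD45- libraries (median 113) and between 0 and 7.3 CPM in CD45+ libraries (median 2.13). The log2 fold change was -5.67 (SE 0.197, edgeR adjusted p = 6.87e-26) in day 7 control tumors and between -5.78 and -4.93 over the 6 comparisons. The median in CD45+ cells was 1.88% of that in CD45- cells, beside a melanoma marker sum of 220 CPM against 29800 CPM, and what part of the Car9 counts in CD45+ libraries came from melanoma RNA was not tested. P4ha2, a collagen prolyl hydroxylase, lay between 51.8 and 111 CPM and between 0 and 14.6 CPM (-3.94, SE 0.169, edgeR adjusted p = 7.02e-23). Its relative P4ha1 did not pass the test in that comparison, with medians of 75.4 and 62.2 CPM (-0.18, SE 0.111, edgeR adjusted p = 0.142). Adm, the vasodilator adrenomedullin, had medians of 49.0 and 11.2 CPM (-1.86, SE 0.194), and Higd1a, a mitochondrial protein induced by low oxygen, of 283 and 90.1 CPM (-1.51, SE 0.145). Bnip3, which drives the removal of mitochondria, had medians of 17.9 and 8.48 CPM (-0.76, SE 0.166), while its relative Bnip3l, at 68.9 and 53.4 CPM, was not called there (-0.09, edgeR adjusted p = 0.393) but was called lower in CD45+ cells in 4 of the other 5 comparisons, down to -0.59.

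The remaining hypoxia genes were called higher in CD45+ cells in some or all of the comparisons. Ddit4, an inhibitor of mTOR complex 1, had medians of 130 CPM in CD45- and 261 CPM in CD45+ cells over all libraries. Its log2 fold change in day 7 control tumors was 0.69 (SE 0.109, edgeR adjusted p = 4.01e-07), and it was called in all 6 comparisons. Ndrg1, a stress-induced gene, had medians of 127 and 191 CPM (0.51, SE 0.146) and was called in 3 of the 6, with values from 0.30 to 1.24. Vegfa, the angiogenic growth factor, had medians of 114 and 129 CPM over all libraries. In day 7 control tumors its log2 fold change was 0.39 (SE 0.133, edgeR adjusted p = 0.00776). Vegfa was called in 2 of the 6 comparisons, those of day 7 control and day 3 histotripsy-treated tumors, and was at -0.19 in day 3 control tumors (edgeR adjusted p = 0.415). Ankrd37 was low in both fractions, at 0.727 to 7.25 CPM and 0 to 25.6 CPM (1.60, SE 0.31), and was called in 3 of the 6, with values from 0.19 to 1.60.

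The oxygen sensor genes divided within the family. Egln3 and Egln1 encode 2 of the prolyl hydroxylases that inactivate HIF. Egln3 lay between 35.0 and 314 CPM in CD45+ libraries (median 72.5) and between 1.58 and 7.02 CPM in CD45- libraries (median 4.21), with no overlap. The log2 fold change of Egln3 was 4.42 (SE 0.258, edgeR adjusted p = 1.5e-18) in day 7 control tumors and between 3.97 and 5.05 over the 6 comparisons. Egln1 went the other way, with medians of 115 CPM in CD45- and 64.7 CPM in CD45+ cells (-0.93, SE 0.108, edgeR adjusted p = 5.69e-10). Hif1a, the oxygen-regulated subunit, whose protein rather than its RNA responds to oxygen, was somewhat higher in CD45+ cells, at 247 and 352 CPM by the medians (0.40, SE 0.0687, edgeR adjusted p = 1.97e-06). Over all libraries, 4 genes (Slc2a1, Pfkfb3, Pfkfb4 and Egln3) were higher in every CD45+ than in any CD45- library, as were 16% of 13598 genes with at least 10 counts in 3 libraries, and 5 genes (Hk2, Tpi1, Eno2, Car9 and P4ha2) were lower in every one, as were 11.6%. The ranges of the other 25 overlapped.

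Other genes of the same pathways, from a list of 79 that excludes the 34, differed between the fractions at a similar rate, with 48 to 56 of 63 or 64 tested genes called per comparison. In day 7 control tumors 26 were higher and 30 lower in CD45+ cells, as were 41.7% and 38.6% of all genes tested. Those with the smallest p in each direction were Cxcr4, a chemokine receptor induced by HIF (10.58), Arg1, the arginase of suppressive myeloid cells (10.51), and Nfil3, a transcription factor of lymphoid and myeloid cells (2.89), which were higher, and Ldhb, the lactate dehydrogenase subunit that favours pyruvate (-4.96), Plod2, a collagen lysyl hydroxylase (-4.04), and Pgm1, a phosphoglucomutase of glycogen use (-2.30), which were lower. In day 3 control tumors the corresponding values were 9.06 for Cxcr4, -5.17 for Ldhb and -3.76 for Plod2.

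Few of the 34 genes differed between treatments, and those called were higher in CD45+ cells of histotripsy-treated tumors on day 3. In that comparison with control tumors (6 against 4 libraries), 32 of the 34 genes passed the filter, Car9 and Eno2 being too low, and 1 was called (Slc16a3, higher), against 7.8% of the 10264 genes tested (6.22% higher and 1.59% lower). With an unadjusted p under 0.05 there were 3, against 23.9% of all genes (14.8% higher and 9.09% lower). Of the 32, 22 had a log2 fold change above 0 and 10 below, with a median of 0.20 against -0.01 over all genes. That balance depends on the scaling: when libraries were scaled by their totals alone it was 15 above and 17 below with a median of -0.05. It also depends on the library that stood apart, without which 17 of 31 lay above 0 with a median of 0.03. Against histotripsy-abscopal tumors, which share the treated libraries with the first comparison, 2 were called (Slc16a3 and Egln3, both higher), against 5.44% of genes (4.87% higher and 0.565% lower), and 30 of 32 lay above 0 (24 with library totals), with a median of 0.28 against -0.03 over all genes. Without that library 24 of 31 lay above 0 with a median of 0.12. In that comparison, with all libraries, 6 had an unadjusted p under 0.05, against 18.7% of all genes (12.2% higher and 6.51% lower).

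Slc16a3 was at 212, 179, 226 and 205 CPM in the 4 control libraries of day 3 CD45+ cells. It was at 357, 411, 1020, 360, 248 and 365 CPM in the 6 histotripsy-treated libraries and at 270, 281, 232, 260, 207, 214 and 176 CPM in the 7 histotripsy-abscopal libraries. Every treated library was above every control, and 5 of the 6 were also above every abscopal library. The log2 fold change of Slc16a3 was 1.17 against control (SE 0.278, edgeR adjusted p = 0.0135) and 0.97 against abscopal tumors (SE 0.23, edgeR adjusted p = 0.0143). The library at 1020 CPM is the one with the high neutrophil markers, and without it the values were 0.78 (edgeR adjusted p = 0.00823) and 0.58 (edgeR adjusted p = 0.0271). In the fit to the treated and control libraries alone, the call against control was lost at the same size (1.17, edgeR adjusted p = 0.0504).

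**Figure D3:**
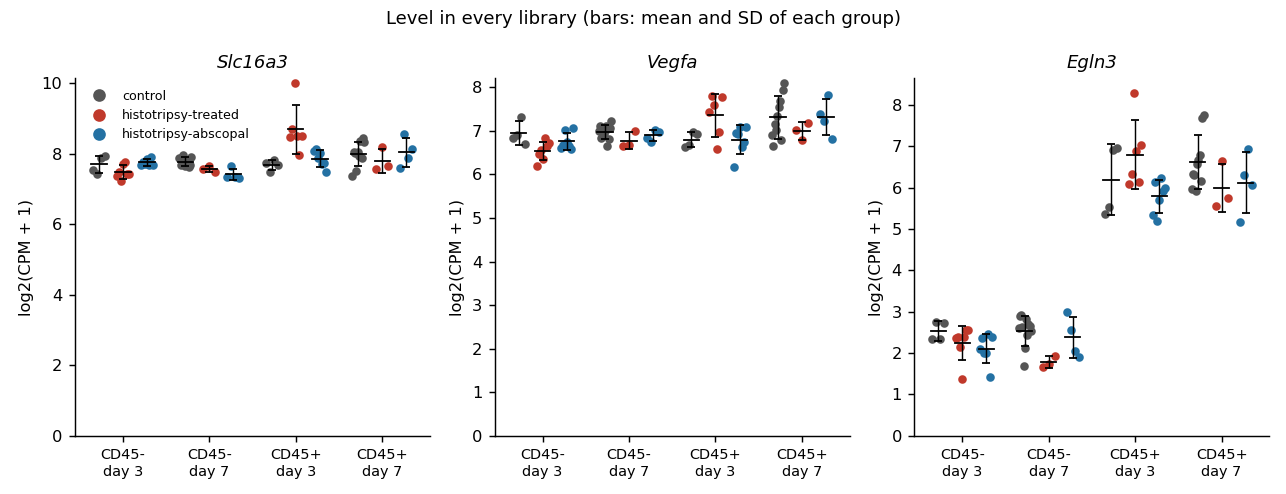
Level of Slc16a3, Vegfa and Egln3 in each library as log2(CPM + 1) (y axis) by fraction and day (x axis), with points coloured by treatment and bars for the mean and SD of each group. In day 3 CD45+ cells the 6 treated libraries lie above the 4 controls for Slc16a3 and overlap them for Vegfa and Egln3, and 1 treated library is far above the rest for Slc16a3 and Egln3.

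Egln3 in day 3 CD45+ cells was at 40.3, 45.4, 119 and 123 CPM in control, at 67.5, 80.0, 314, 117, 69.0 and 130 CPM in treated, and at 39.6, 69.9, 35.9, 51.3, 74.4, 59.4 and 62.9 CPM in abscopal libraries. The controls split into a low and a high pair that spanned most of the treated values. Egln3 was not called against control (0.65, SE 0.382, edgeR adjusted p = 0.316). The log2 fold change of Egln3 was 1.18 against abscopal tumors (SE 0.329, edgeR adjusted p = 0.0366), and without treated replicate 3 it was 0.71 and no longer called (edgeR adjusted p = 0.191). The call was also lost with limma-voom, with library totals and without any of several other single libraries, listed below. Vegfa was at 98.1, 101, 125 and 120 CPM in control libraries and at 171, 222, 193, 94.3, 125 and 219 CPM in treated libraries, 4 of which were above every control and 1 below. The abscopal libraries lay between 71.1 and 135 CPM. Vegfa missed the threshold in both comparisons, at 0.63 against control (SE 0.217, edgeR adjusted p = 0.079) and 0.60 against abscopal tumors (SE 0.184, edgeR adjusted p = 0.0581), and with DESeq2 it passed in the second (0.61, adjusted p = 0.0297). Without treated replicate 3 Vegfa was at 0.59 (edgeR adjusted p = 0.128) and 0.56 (edgeR adjusted p = 0.139).

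Leukocyte composition moved with these values. Of the neutrophil markers, 7 of 8 were tested and 5 were called higher in day 3 CD45+ cells of treated against control tumors, and the median over the 7 was 2.27 on the log2 scale. Without treated replicate 3, 1 of the 7 was called and the median was 1.55. Their summed level was 407 to 2960 CPM in control, 1450 to 40700 CPM in treated and 949 to 3070 CPM in abscopal libraries. The summed level of T cell markers was 1510 to 1980 CPM in control, 1350 to 1750 CPM in abscopal and 487 to 1320 CPM in treated libraries. The treated libraries overlapped neither of the other groups. Treated replicates 1 and 5 had neutrophil sums of 2340 and 1450 CPM, within the range of the controls, and Slc16a3 levels of 357 and 248 CPM, above every control. Their T cell sums were 854 and 1320 CPM, below every control. The part of composition in the differences of Slc16a3, Egln3 and Vegfa was not tested beyond these values.

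**Figure D4:**
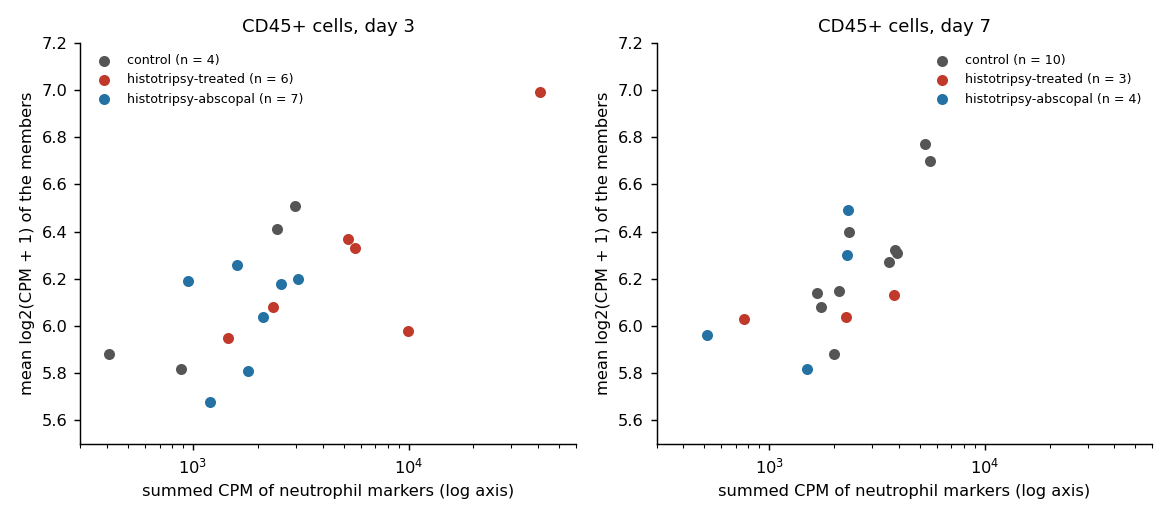
Mean log2(CPM + 1) of the 34 genes (y axis) against the summed CPM of 8 neutrophil markers (x axis, log scale) in CD45+ libraries of day 3 (left) and day 7 (right), 1 point per library, coloured by treatment. Histotripsy-treated replicate 3 of day 3 lies alone at 40700 CPM and a mean of 6.99, and control replicates 9 and 10 are the highest of day 7 at 6.77 and 6.70.

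In CD45- cells on day 3 the treated tumors had 0 called genes among the 34 with edgeR (background 0.0916% of 10921 genes, 0.0733% higher and 0.0183% lower). With edgeR 7 of the 34 had an unadjusted p under 0.05, 1 higher and 6 lower, as did 10.6% of all genes, 5.96% higher and 4.61% lower, and DESeq2 and limma-voom also called 0. Of the 34 genes, 31 lay below control, and their median was -0.19 on the log2 scale, against 0.01 over all genes, a balance of 3 above and 31 below that was the same with library totals. The 2 genes with the largest values were Pfkfb4 and Bnip3. Pfkfb4 was at 1.73, 1.75, 1.83 and 2.25 CPM in control and at 2.11 to 6.46 CPM in treated libraries (median 3.8), 6 of which were above every control, and its log2 fold change was 1.01 (SE 0.315, edgeR adjusted p = 0.25) on 3 to 17 counts per library. Bnip3 had medians of 19.9 and 13.8 CPM (-0.52, SE 0.192, edgeR adjusted p = 0.321). Vegfa was at 114, 119, 160 and 103 CPM in control and at 72.8 to 113 CPM (median 92.8) in treated libraries, 5 of which were below every control (-0.43, SE 0.128, edgeR adjusted p = 0.235). Ndrg1 (-0.40) and Egln1 (-0.40) had similar sizes and adjusted p-values of 0.235 and 0.251 in the same edgeR fit.

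Against histotripsy-abscopal tumors, 0 of the 34 genes were called in treated CD45- cells on day 3 (background 0.147%, 0.0916% higher and 0.0549% lower). With an unadjusted p under 0.05 there were 12, all lower in treated tumors, against 13.5% of all genes in either direction (7.45% higher and 6.04% lower), and DESeq2 called 1 (Aldoa) and limma-voom 0. Aldoa lay between 897 and 1290 CPM in treated and between 1210 and 1750 CPM in abscopal libraries (-0.39, SE 0.0947, edgeR adjusted p = 0.0863). Car9 had medians of 95.8 and 124 CPM (-0.70, SE 0.219, edgeR adjusted p = 0.146) and Eno2 of 10.5 and 17.5 CPM (-0.56, SE 0.183, edgeR adjusted p = 0.16). Car9 was above 190 CPM in 3 of the 7 abscopal libraries and in 0 of the 7 treated ones. The summed fibroblast markers were 49.7 to 12700 CPM in treated, 15.8 to 981 CPM in control and 134 to 737 CPM in abscopal libraries, with overlapping ranges. Of these markers, 7 of 7 had an unadjusted p under 0.05 in both comparisons and 0 were called. The melanoma marker sum was 22600 to 31400 CPM in treated and 26900 to 32200 CPM in control libraries. The part of the fibroblast share in the lower values of the 34 genes was not tested.

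**Figure D5:**
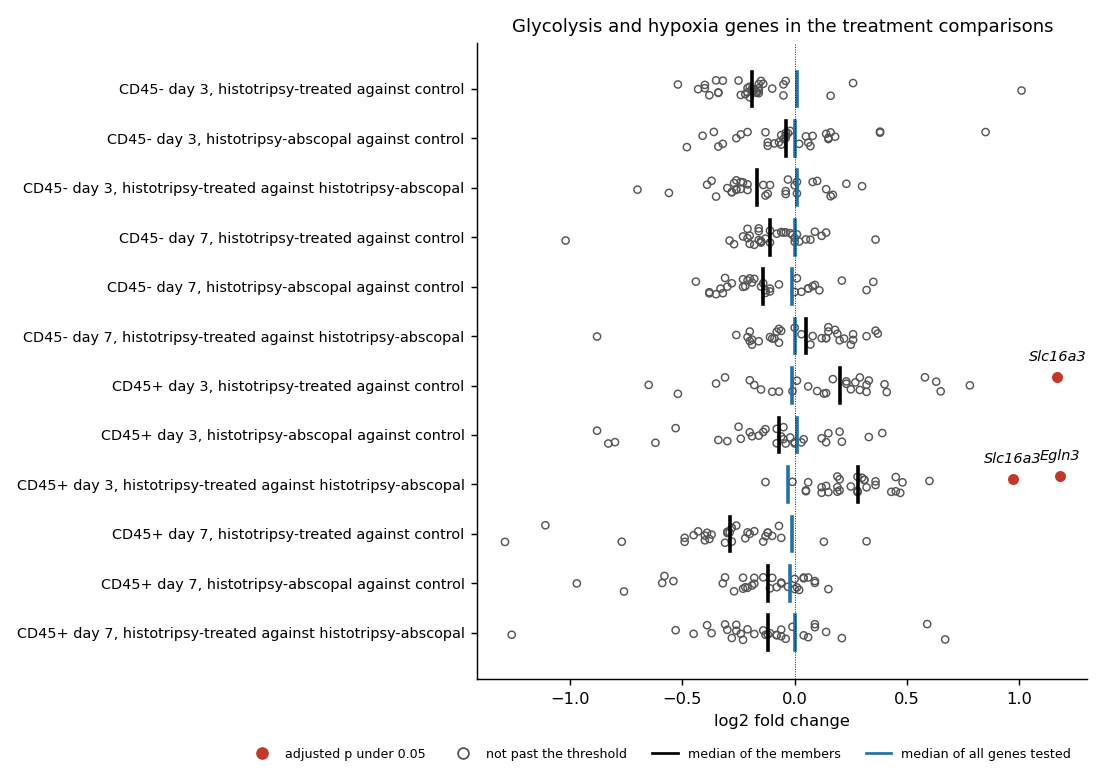
Log2 fold change (x axis) of each of the 34 genes, or of the 32 that passed the filter in CD45+ cells, in the 12 comparisons between treatments (rows), 1 circle per gene, filled red where the adjusted p is under 0.05, with a black line at the median of the genes and a blue line at the median of all genes tested. The 3 red points are Slc16a3 in 2 comparisons and Egln3 in 1, all in day 3 CD45+ cells, and most other circles lie between -0.5 and 0.5.

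The opposite, untreated tumors differed from control tumors in 0 of the 34 genes on either day in either fraction. On day 3 the background was 0% in CD45- cells, where 3 of the 34 genes had an unadjusted p under 0.05 with edgeR (5.19% of all genes did, 2.72% higher and 2.47% lower) and the 2 largest values were 0.85 for Pfkfb4 (SE 0.318, edgeR adjusted p = 0.933) and -0.48 for Egln3 (SE 0.283). Pfkfb4 lay between 2.6 and 5.14 CPM in the 7 abscopal libraries, all above the 4 controls, and was the only gene of the 34 without overlap there. Such separations, named also for Slc16a3, Bnip3l and Adm in CD45+ cells, are given without the share of all genes that separate. It was also 0% in CD45+ cells, where 1 gene had such a p (7.76% of all genes did, 4.94% higher and 2.82% lower) and the largest values were those of Pgk1 (-0.88, SE 0.458) and Ankrd37 (-0.83, SE 0.491). DESeq2 and limma-voom called 0 in both. On day 7 the CD45- background was 0.291% of 10996 genes (0.264% higher and 0.0273% lower). There 10 of the 34 genes had an unadjusted p under 0.05, all lower in abscopal tumors, as did 9.56% of all genes (5.82% higher and 3.74% lower), with DESeq2 calling 1 (Slc16a3) and limma-voom 0. Slc16a3 was at 160, 200, 162 and 159 CPM in the 4 abscopal libraries and at 195 to 247 CPM (median 221) in the 11 controls, so that 3 of the 4 were below every control (-0.38, SE 0.0867, edgeR adjusted p = 0.06). Aldoc (-0.44, SE 0.131, edgeR adjusted p = 0.175), Pfkl (-0.35, SE 0.0894, edgeR adjusted p = 0.0903) and Gpi1 (-0.30, SE 0.0832, edgeR adjusted p = 0.123) followed. In CD45+ cells on day 7 the background was 0% of 10817 genes, 1 of 32 genes had an unadjusted p under 0.05 (Bnip3l, 40.9, 50.4, 51.6 and 40.4 CPM against 51.7 to 93.3 CPM in 10 controls, -0.59, SE 0.155, edgeR adjusted p = 0.503) as did 7.4% of all genes (4.02% higher and 3.37% lower), 9 of 32 lay above control with a median of -0.12, and DESeq2 and limma-voom called 0.

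By day 7 the treated tumors also showed 0 called genes among the 34 in each fraction, with 3 libraries per treated group. In CD45- cells (background 0%) 3 of the 34 genes had an unadjusted p under 0.05 against control, as did 6.07% of all genes (3.83% higher and 2.25% lower). Egln3 had the largest value, at 2.19 to 2.83 CPM in treated and 2.21 to 6.53 CPM in control libraries, 1 of which lay within the treated range (-1.02, SE 0.351, edgeR adjusted p = 0.607) on 6 to 21 counts, and Adm the next (0.36, SE 0.209). In CD45+ cells (background 0%) 30 of 32 genes lay below control, with a median of -0.29 against -0.01 over all genes, and 6 had an unadjusted p under 0.05, all lower, as did 3.18% of all genes (1.55% higher and 1.63% lower). Control replicates 9 and 10 had the highest means of their group over the 34 genes (6.77 and 6.70 in log2), and without both the median was -0.17 with 28 of 32 below control, and 2 had an unadjusted p under 0.05. The comparison with abscopal tumors above uses the same controls, and without both its median was -0.01 with 14 of 32 above control. Adm was at 7.34, 4.53 and 5.33 CPM in treated libraries and at 9.1 to 27.3 CPM (median 11.5) in the 10 controls, below every one (-1.11, SE 0.38, edgeR adjusted p = 1). Ankrd37 had the largest value (-1.29, SE 0.548, edgeR adjusted p = 1), which was -0.74 without control replicates 9 and 10. Against abscopal tumors on day 7, 4 of 34 genes in CD45- cells and 1 of 32 in CD45+ cells had an unadjusted p under 0.05 (background 0% called in each). Of all genes 6.74% in CD45- cells (3.69% higher and 3.05% lower) and 2.68% in CD45+ cells (1.38% higher and 1.3% lower) had such a p, and the largest values were -0.88 for Egln3 (SE 0.399) and 0.37 for Hk2 (SE 0.171) in CD45- cells and -1.26 for Adm (SE 0.435) and 0.67 for Pgk1 (SE 0.621) in CD45+ cells. DESeq2 and limma-voom called 0 in these 4 comparisons.

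Whether the response to histotripsy differed between fractions was tested as a difference of differences. On day 3, 2 of 34 genes differed (background 1.91% of 12392 genes, 1.41% higher and 0.5% lower), Slc16a3 by 1.42 (SE 0.308, edgeR adjusted p = 0.012) and Vegfa by 1.06 (SE 0.259, edgeR adjusted p = 0.026), both with the larger value in CD45+ cells. For Slc16a3 the median of treated libraries was 171 CPM against 209 CPM in control CD45- cells and 363 CPM against 208 CPM in CD45+ cells. For Vegfa these medians were 92.8 and 117 CPM in CD45- cells and 182 and 111 CPM in CD45+ cells. Over the 34 genes 25 values were above 0, with a median of 0.36 against -0.02 over all genes, and 10 had an unadjusted p under 0.05, all above 0, as did 16.1% of all genes (9.04% above and 7.11% below). Without CD45+ treated replicate 3, Slc16a3 differed by 0.98 (edgeR adjusted p = 0.00955) and Vegfa by 1.0 (edgeR adjusted p = 0.0518), with 22 of 34 values above 0 and a median of 0.14. In that refit 5 of the 34 genes had an unadjusted p under 0.05, as did 1853 of 12392 genes tested. With library totals Vegfa was at 0.82 (edgeR adjusted p = 0.0768). On day 7, 0 of 34 differed (background 0%), with 2 genes at an unadjusted p under 0.05 (4.84% of all genes, 1.91% above and 2.93% below 0) and Adm the largest (-1.46, SE 0.46, edgeR adjusted p = 0.693), and DESeq2 and limma-voom called 0.

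Between days the response in CD45+ cells differed for 1 of 32 genes (background 2.7% of 11251 genes, 0.258% higher and 2.44% lower). Slc16a3 was lower on day 7 than on day 3 relative to control by 1.37 on the log2 scale (-1.37, SE 0.372, edgeR adjusted p = 0.0383). Its day 7 levels were 187, 292 and 201 CPM in treated, 164 to 345 CPM in control and 194, 379, 232 and 277 CPM in abscopal libraries, all overlapping. Without the day 3 library that stood apart the difference was -0.99 and not called (edgeR adjusted p = 0.0646), and without day 7 control replicates 9 and 10 it was -1.27 and not called (edgeR adjusted p = 0.0801). With limma-voom, with library totals and with the replicate number as a block it was not called either. Over the 32 genes 28 values were below 0, with a median of -0.44 against 0.01 over all genes, and 10 had an unadjusted p under 0.05, all below 0, as did 15.8% of all genes (5.28% above and 10.5% below). Without the day 3 library the median was -0.34 and 5 of 32 genes had an unadjusted p under 0.05, as did 1556 of 11330 genes tested. Without the 2 day 7 controls the median was -0.38 and 5 of 32 had such a p, as did 1537 of 11199. In CD45- cells 0 of 34 genes differed between days (background 0%), 3 had an unadjusted p under 0.05 (6.02% of all genes, 2.87% above and 3.14% below 0), DESeq2 and limma-voom called 0, and the largest values were those of Pfkfb4 (-1.02, SE 0.515) and Adm (0.72, SE 0.308).

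Of the 79 other pathway genes, 57 were tested in day 3 CD45+ cells and 6 were called in treated against control tumors, 5 of them higher, against 7.8% of all genes tested. Slc2a6, a glucose transporter of leukocytes, was higher by 1.90 (edgeR adjusted p = 0.0109), Pgf, a relative of Vegfa, by 1.64 (edgeR adjusted p = 0.0279) and Pygl, the liver-type glycogen phosphorylase, by 0.93 (edgeR adjusted p = 0.0147). Tigar, a phosphatase that lowers fructose 2,6-bisphosphate, was lower (-0.92, edgeR adjusted p = 0.0466). Against abscopal tumors 4 were called (5.44% of all genes were), among them Pygl (1.09, edgeR adjusted p = 0.00158), Slc2a6 (1.60, edgeR adjusted p = 0.00809) and Pgd (0.64, edgeR adjusted p = 0.0411), an enzyme of the pentose phosphate pathway, all higher, and Plod2 (-1.31, edgeR adjusted p = 0.0492), lower. The response on day 3 differed between fractions for 3 of 63 (1.91% of all genes), namely Pgf (2.07), Mxi1 (0.95) and Gbe1 (0.97), each with the larger value in CD45+ cells. Without treated replicate 3, 2 were called against control (Slc2a6 at 1.39, edgeR adjusted p = 0.0172, and Pygl at 0.68, edgeR adjusted p = 0.0189), the same 2 against abscopal tumors (Pygl at 0.84, edgeR adjusted p = 0.00201, and Slc2a6 at 1.09, edgeR adjusted p = 0.0311), and 1 in the difference between fractions (Pgf at 1.97, edgeR adjusted p = 0.0224). These were 3.51%, 3.51% and 1.59% of the list, against 5.53%, 2.58% and 1.13% of all genes. In the remaining treatment comparisons 1 gene was called, Gys1, the glycogen synthase of muscle and most tissues, in day 7 CD45- cells of abscopal tumors (-0.45, edgeR adjusted p = 0.0282), and between days 1 in CD45+ cells, Gbe1, the glycogen branching enzyme (-1.07, edgeR adjusted p = 0.0496), which was not called without treated replicate 3 (-0.93, edgeR adjusted p = 0.097). Of all genes, 0.291% and 2.7% were called in these 2 comparisons.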

How the data were processed

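QuantSeq 3′ end libraries were made from flow-sorted CD45+ and CD45- cells of B16F10 tumors. The authors deposited raw counts per gene in 4 tables, 1 for each fraction and day. Per the labels, processing notes and methods, reads were trimmed with Trim Galore 0.5.0 and aligned with STAR 2.6.0 to GRCm38, unique molecular identifiers were collapsed with Lexogen software, and genes were counted with featureCounts. Each table has 55487 named lines. The CD45+ tables hold 1 further unnamed line equal to the column totals, which was left out, and 120 lines repeat the symbol of an earlier line. Aldoa has a second line that is 0 in all libraries. All columns matched a sample (0 did not).

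Counts were analysed in R 4.3.3 with edgeR 4.0.16 (TMM factors, filterByExpr with a minimum count of 10 and a minimum total of 15, quasi-likelihood test, Benjamini-Hochberg adjustment over all genes tested, threshold 0.05). The treatment groups of a fraction and day were fitted together, and the fractions and the differences of differences in joint fits. DESeq2 1.42.0, limma 3.58.1 (voom), scaling by library totals, no filter, only the groups compared, libraries of at least 1000000 counts, a replicate block and leaving out each library were the alternatives, and leaving out CD45+ day 7 control replicates 9 and 10 was added after seeing the data. Descriptions and figures used Python 3.11.15, numpy 2.4.6, scipy 1.17.1 and matplotlib 3.10.9. The smallest chi-square per degree of freedom between 2 libraries of a group was 2.09, so no library was counted as a duplicate.

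The 34 genes, the list of 79 other pathway genes and the marker lists were chosen with earlier results of these data known. Values are given for 21 of the 34 genes by name whatever their test, for called genes, for the 2 largest values where 0 were called, and for up to 3 called genes of the 79 per direction and comparison by smallest p. Other genes are named where a count, a non-overlap or a copy concerned them, chosen after their values were seen. On simulated counts, 2-fold changes were recovered for 73% and 4-fold changes for 94% of 100 changed genes each in the day 3 CD45- comparison of treated with control tumors, and for 53% and 97% in the CD45+ one.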

Additional observations from a re-analysis of the deposited data

Results flagged for a closer look

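Single libraries lay far from the rest of their group in 28 of 304 combinations of gene and group of 4 to 10 libraries, by Dixon's criterion, where chance alone gives about 5% of combinations. CD45+ day 3 histotripsy-treated replicate 3 held 9 of the 28, all high: Slc2a1 at 571 CPM, Hk1 at 234, Tpi1 at 454, Slc16a3 at 1020, Bnip3 at 29.1, Ndrg1 at 441, Egln3 at 314, P4ha1 at 125 and Hif1a at 672 CPM, where the nearest library of the group was at 303, 126, 266, 411, 9.8, 266, 130, 69.3 and 409 CPM. This is the library with a neutrophil marker sum of 40700 CPM, and the part of neutrophils in these levels was not tested.

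In the CD45- fraction, day 3 control replicate 3 was high for Slc2a1 (177 CPM, nearest 138) and Gapdh (199, nearest 114) and low for Hk2 (1280, nearest 1550). Day 3 abscopal replicate 7 was high for Hk1 (172 CPM, nearest 150) and Eno1 (89.4, nearest 71.7), and abscopal replicate 4 was low for Pkm (703, nearest 886). Day 3 treated replicate 7 was high for Pkm (1230 CPM, nearest 966). Day 7 abscopal replicate 2 was high for Ldha (2760 CPM, nearest 2320) and Slc16a3 (200, nearest 162).

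In the CD45+ fraction, day 3 control replicate 4 was high for Car9 (7.3 CPM, nearest 1.35) and control replicate 2 low for P4ha1 (45.4, nearest 68.1). Day 3 abscopal replicate 4 was high for Car9 (6.41 CPM, nearest 3.5) beside a melanoma marker sum of 2560 CPM, abscopal replicate 1 was low for Egln1 (34.4, nearest 57.7), and treated replicate 6 was high for Ankrd37 (11.4, nearest 5.52). On day 7, control replicate 9 was high for Pgk1 (26.6 CPM, nearest 14.7) and Adm (27.3, nearest 14.2). Abscopal replicate 1 was low for Pfkl (43.9, nearest 69.5), replicate 3 high for Adm (28.9, nearest 9.86) and replicate 4 low for Ankrd37 (1.26, nearest 6.9).

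The effect of histotripsy against control differed between groups in 3 cases by the test of the difference itself with edgeR: between fractions on day 3 for Slc16a3 (1.42) and Vegfa (1.06), and between days in CD45+ cells for Slc16a3 (-1.37). The Vegfa call and the call between days were both lost without CD45+ day 3 histotripsy-treated replicate 3, with library totals and in further alternatives given below.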

How the results depend on the processing

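The counts of called genes among the 34 were within 1.5 times the reported value in 118 of 136 settings other than leaving out a library, and in 0 cases did a called value change sign. With DESeq2 the count was 1 in place of 0 for CD45- day 3 treated against abscopal (Aldoa) and for CD45- day 7 abscopal against control tumors (Slc16a3). With limma-voom it was 1 in place of 2 for CD45+ day 3 treated against abscopal tumors (Egln3 was lost) and 0 in place of 1 for the CD45+ difference between days. With library totals it was 1 in place of 2 in the former (Egln3 lost), 0 in the latter, and 1 in place of 2 for the day 3 difference between fractions (Vegfa lost). Without the filter on low counts it was 1 in place of 0 for CD45- day 3 treated against abscopal, CD45+ day 3 abscopal against control and CD45+ day 7 treated against control tumors, 2 in place of 0 for CD45- day 7 abscopal against control tumors, and 3 in place of 1 for the CD45+ difference between days. With only the groups compared, it was 0 in place of 1 for CD45+ day 3 treated against control tumors. With CD45+ day 7 control replicates 9 and 10 left out, an alternative chosen after seeing the data, it was 0 in place of 1 for the CD45+ difference between days. The cause of these shifts was not tested.

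Libraries of different groups share replicate numbers, but in none of the group pairs did every same-numbered pair correlate above 0.1, so the numbers were not taken as pairs. Where groups differ in size, as the 2 fractions of day 3 treated tumors do, equal numbers need not mark the same tumor. The check therefore cannot show that the libraries are unpaired. With the replicate number as a block the count was 1 in place of 0 for CD45- day 3 treated against control (Ndrg1), 3 in place of 0 for CD45- day 3 treated against abscopal (Pfkl, Aldoa and Ndrg1, all lower in treated tumors), 1 in place of 2 for CD45+ day 3 treated against abscopal tumors, and 0 in place of 1 for the CD45+ difference between days. Each library matched its own number best between the fractions of day 7 treated (3 of 3) and abscopal (4 of 4) tumors, a hint from the data and not the design.

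Leaving out 1 library at a time gave 0 to 2 called genes for CD45- day 3 treated against abscopal, 1 to 2 for CD45+ day 3 treated against control, 1 to 4 for CD45+ day 3 treated against abscopal, 0 to 1 for CD45- day 7 abscopal against control, 1 to 2 for the day 3 difference between fractions and 0 to 1 for the CD45+ difference between days. Slc16a3 in CD45+ day 3 treated against control tumors stayed called in each refit (0.78 to 1.31). Egln3 against abscopal tumors was lost without treated replicate 3 or 6 or abscopal replicate 1, 2, 3, 4, 6 or 7. Vegfa in the difference between fractions was lost without CD45+ treated replicate 2 or 3 or CD45- control replicate 3. The mean log2 CPM of the 34 genes moved by more than 1 SD with library totals in 4 of 12 groups, to 6.86, 6.73 and 6.77 in CD45- day 7 control, treated and abscopal and 5.97 in CD45+ day 7 treated libraries. Depth of 887798 to 3820705 counts limits Eno2 and Car9 in CD45+ cells and Pfkfb4 and Egln3 in CD45- cells, which rest on few counts, and the 3 treated libraries of day 7 limit each comparison that uses them.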

Other observations

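In the CD45+ fraction of day 7 control tumors, replicates 9 and 10 had the highest level of their group for 18 and 10 of the 34 genes. Egln3 was at 206 and 216 CPM, Vegfa at 245 and 275 CPM and Ankrd37 at 20.8 and 25.6 CPM in them, where the medians of the 10 libraries were 87.3 CPM for Egln3 and 151 CPM for Vegfa.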
